A study of Homo sapiens with 6 samples.

Results

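Syndecans and glypicans are the proteoglycans that carry heparan sulfate chains on the cell surface. The family is described here by 9 genes, SDC1, SDC2, SDC3 and SDC4 for the syndecans and GPC1, GPC2, GPC3, GPC4 and GPC6 for the glypicans, out of 28278 genes listed in each file. The members were chosen by gene symbol after SDC3 had been seen among the genes with the lowest log2 fold changes in these same libraries. For this reason, the differences of the members between siALDOA and siControl are given as a description and not as a test. HT29 cells, a human colorectal adenocarcinoma line with epithelial morphology, were transfected with an siRNA targeting ALDOA, the glycolytic enzyme aldolase A (siALDOA, genotype label ALDOA KD), or with a scrambled siRNA (siControl, genotype label WT). RNA was taken after 48 h from 3 biological replicates of each group, and total RNA of the whole culture went into the libraries. The labels name 1 cell line, 1 targeting siRNA treatment and no untransfected cells, so an effect of the loss of ALDOA and an effect of this siRNA itself cannot be told apart. In such bulk samples, fewer cells that express a gene and less RNA per cell cannot be told apart either.

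Syndecans span the membrane and end in a short cytoplasmic tail that binds PDZ proteins such as syntenin and CASK, whereas glypicans are globular proteins held on the outer membrane by a lipid anchor. Both classes receive their chains in the Golgi, where a linker is built on serines of the core protein, extended by the EXT polymerases and then sulfated in patches. The sulfated chains bind growth factors such as FGFs, Wnt and Hedgehog proteins and present them to their receptors. SDC1 is known as the main syndecan of simple epithelia, including the colon.

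The libraries held between 27277538 and 33237914 counts on genes, and ribosomal RNA genes took 7.71% to 17.4% of them. Within their groups siALDOA replicate 1, at 13.1%, and siControl replicate 3, at 8.15%, stood apart in this share. Without the first of these the log2 fold change was -1.15 for SDC3 and -0.48 for GPC1, and without the second it was -1.36 and -0.57, given as values of genes picked in these same libraries. ALDOA was at 283, 305 and 280 CPM (counts scaled to the TMM-adjusted library size) with siALDOA and at 592, 637 and 668 CPM with siControl, so the target of the siRNA was lower in every library that the labels call a knockdown. The epithelial markers EPCAM, CDH1, KRT8, KRT18, KRT19, KRT20, VIL1 and CDX2 were all detected in every library, with summed levels of 9467 to 9797 CPM with siALDOA and 10029 to 10589 CPM with siControl. KRT8 and KRT18 make up most of this sum. Of the 8 markers, KRT8, KRT18, CDH1 and VIL1 had siALDOA below siControl without overlap, KRT19 had it above, and the other 3 overlapped. In the fit over all genes KRT18 was lower with siALDOA (log2 fold change -0.28, adjusted p = 0.0152, edgeR) and KRT19 higher (0.38, adjusted p = 5.77e-04), and the other 6 did not pass. Of 6 fibroblast markers, COL1A2 was at 0 and COL3A1, PDGFRB and DCN had at most 4 counts, and the sum stayed between 3.05 and 4.46 CPM over all libraries. Of 4 endothelial markers, KDR was at 0 and CDH5 and VWF had at most 3 counts. Their sum was 0.493 to 1.30 CPM with siALDOA and 1.41 to 2.12 CPM with siControl, nearly all of it from PECAM1. Of 6 leukocyte markers, CD3E and TYROBP were at 0 and PTPRC had at most 1 count, with sums of 12.8 to 15.5 CPM that came mostly from CD68. The epithelial and endothelial sums did not overlap between the groups, and their part in the results was not tested.

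The 9 genes differed widely in how strongly HT29 cells expressed them. SDC2, a syndecan best known from mesenchymal cells, and GPC6 had 0 counts in all 6 libraries, which allows up to 3 counts, or 0.0910 to 0.108 CPM per library, from counting error alone. The other 7 members passed the filter on low counts and are called detected here. To compare the genes with one another, CPM were divided by the length of the longest GENCODE transcript of each gene in kilobases. On this scale SDC1 was at 86.3 ± 2.77 (SD, n = 3) with siControl and SDC4, a widely expressed syndecan of focal adhesions, at 42.0 ± 2.22 CPM per kilobase (SD, n = 3). With siALDOA the levels were 89.1 ± 4.16 for SDC1 and 39.8 ± 0.108 CPM per kilobase for SDC4 (SD, n = 3). SDC1 and SDC4 thus held 61.8% and 30.0% of the summed level per kilobase of the 9 genes in siControl and 64.5% and 28.8% in siALDOA. GPC4 and GPC1 were the most abundant glypicans, at 4.54 ± 0.379 and 4.44 ± 0.259 CPM per kilobase with siControl (SD, n = 3), and on this scale these neighbours did not differ beyond their spread. With siALDOA GPC4 was at 4.34 ± 0.222 and GPC1 at 3.09 ± 0.291 CPM per kilobase (SD, n = 3), without overlap. GPC2, GPC3 and SDC3 came last. GPC2 was at 1.04 ± 0.101, SDC3 at 0.753 ± 0.0998 and GPC3 at 0.691 ± 0.320 CPM per kilobase with siControl (SD, n = 3), where GPC3 overlapped both of the others. With siALDOA SDC3 was the lowest detected member, at 0.310 ± 0.0537 CPM per kilobase (SD, n = 3). These levels and shares depend on the length used. Dividing by the median transcript length of each gene exchanged GPC1 and GPC4 and left the other 5 places as they were, but SDC1 then held 79.3% and SDC4 12.7% of the siControl sum. On that scale GPC1, at 15.2 ± 0.888, was well above GPC4, at 4.54 ± 0.379 CPM per kilobase with siControl (SD, n = 3).

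**Figure D1:**
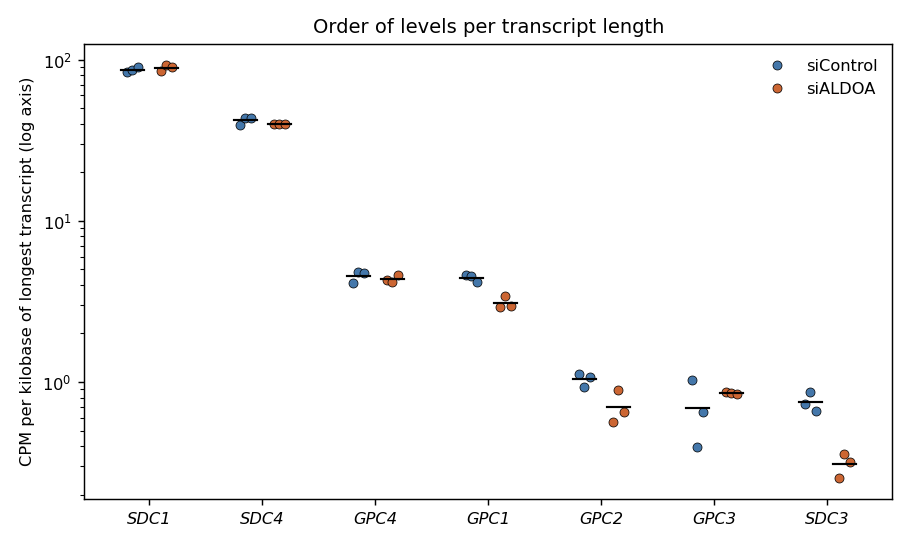
CPM per kilobase of the longest transcript (log axis) for the 7 detected members, with 1 point per library and a line at the mean of 3 libraries per group. SDC1 and SDC4 lie far above the glypicans, and SDC3 is the lowest member with siALDOA.

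SDC3 (ENSG00000162512, hg38 chromosome 1, minus strand, 30869466 to 30908758) encodes a syndecan known mainly from the nervous system. It was counted 45, 69 and 58 times in the siALDOA libraries and 146, 168 and 140 times in the siControl libraries. After scaling this was 1.62, 2.30 and 2.04 CPM with siALDOA and 4.68, 5.50 and 4.25 CPM with siControl. All 3 siALDOA libraries were below all 3 siControl libraries, and the lowest siControl library was well above the highest siALDOA library. The mean of SDC3 with siALDOA, 1.98 ± 0.343 CPM, was 41.2% of that with siControl, 4.81 ± 0.638 CPM (SD, n = 3). On the log2 scale this difference was -1.27 with a standard error of 0.21. Among 15307 tested genes this log2 fold change had rank 19 from the lowest, which is the value that brought the family to attention. The log2 fold change of SDC3 was -1.15 without siALDOA replicate 1 and -1.39 without siALDOA replicate 2, and the other fits that each left out 1 library lay between these values. The coefficient of variation among the SDC3 libraries was 17.3% with siALDOA and 13.3% with siControl, where counting alone would give 13.2% and 8.13%.

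The other detected syndecans, SDC1 and SDC4, overlapped between the groups. SDC1 (ENSG00000115884, chromosome 2, 20200797 to 20225433) was at 279, 306 and 296 CPM with siALDOA and at 276, 282 and 294 CPM with siControl, and the groups overlapped. Its log2 fold change was 0.046, with a 95% interval from -0.072 to 0.16. SDC4 (ENSG00000124145, chromosome 20, 45325288 to 45348424) was at 104, 104 and 104 CPM with siALDOA and at 103, 113 and 113 CPM with siControl. Here siControl replicate 1 was below the siALDOA libraries and the other two were above them. For SDC4 the log2 fold change was -0.078, with a 95% interval from -0.20 to 0.046. Reads of SDC4 could be shared with its pseudogene SDC4P, which was counted 0 times in every library.

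Among the glypicans, GPC1 and GPC2 had all siALDOA libraries below all siControl libraries, and GPC2 did not pass the threshold of the fit over all genes. GPC1 (ENSG00000063660, plus strand of chromosome 2, 240435663 to 240468076), a co-receptor for FGF signaling, was at 10.8, 12.7 and 11.0 CPM with siALDOA and at 17.3, 16.8 and 15.4 CPM with siControl. The groups did not overlap, and the mean was 11.5 ± 1.08 CPM with siALDOA against 16.5 ± 0.964 CPM with siControl (SD, n = 3). For GPC1 the log2 fold change was -0.52 (standard error 0.11), and fits lacking any single library gave -0.60 to -0.48. GPC1 hosts the microRNA gene MIR149 in an intron, and MIR149 itself was counted at most 2 times in any library. GPC2 (ENSG00000213420, minus strand of chromosome 7, 100169606 to 100177381), a glypican of the developing nervous system, was at 1.44, 2.26 and 1.65 CPM with siALDOA and at 2.85, 2.36 and 2.73 CPM with siControl. The gap between the groups was narrow, since the highest siALDOA library of GPC2 was close to the lowest siControl library. For GPC2 the log2 fold change was -0.57 (standard error 0.26), and it moved from -0.78 without siALDOA replicate 2 to -0.43 without siALDOA replicate 1.

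GPC4 and GPC3 lie next to each other on the minus strand of the X chromosome. GPC4 (ENSG00000076716, 133300103 to 133415489) was at 21.3, 20.6 and 22.7 CPM with siALDOA and at 20.3, 23.7 and 23.4 CPM with siControl. The groups overlapped, and the log2 fold change of -0.062 (95% interval from -0.25 to 0.13) became 0.0088 when libraries were scaled by their totals only. GPC3 (ENSG00000147257, 133535745 to 133987100), an oncofetal glypican best known from liver, was at 2.01, 2.00 and 1.97 CPM with siALDOA and at 2.41, 0.917 and 1.52 CPM with siControl. The siControl libraries of GPC3 spread from below to above all siALDOA libraries. For GPC3 the log2 fold change was 0.30 (95% interval from -0.36 to 0.96), with 0.024 without siControl replicate 2 and 0.70 without siControl replicate 1, so these libraries do not show a direction for it.

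**Figure D2:**
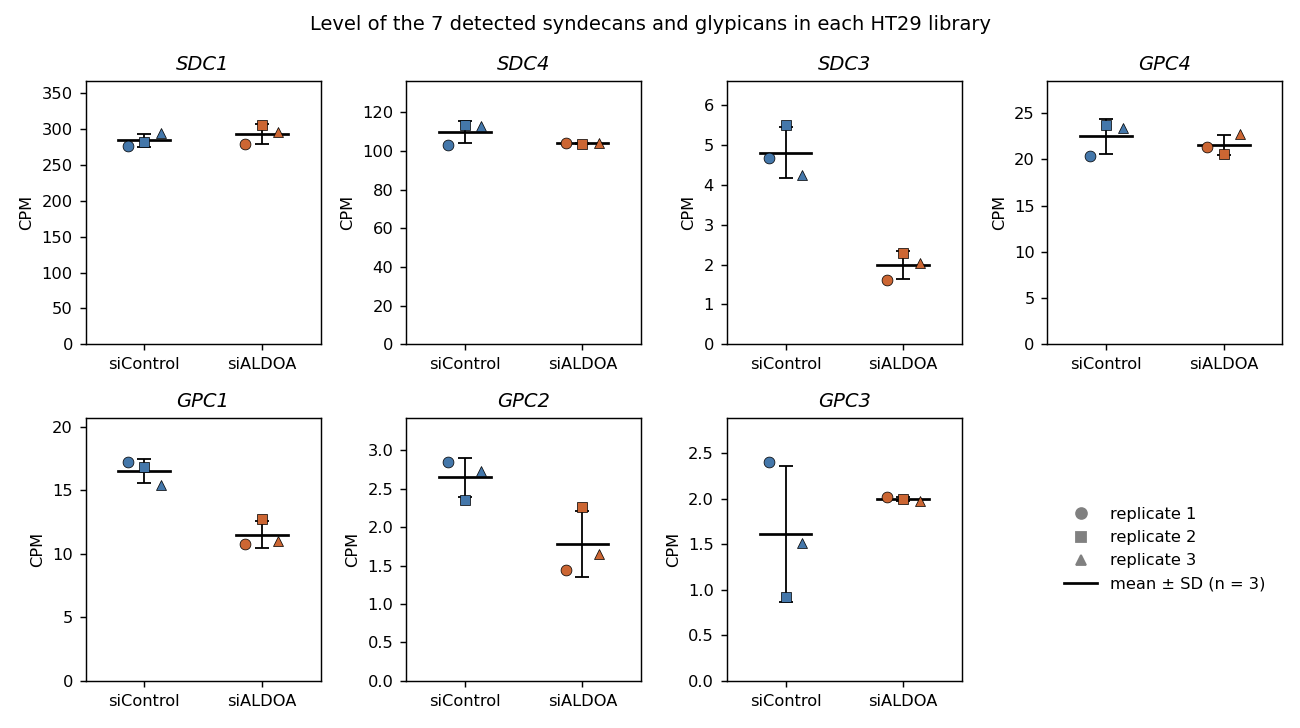
CPM of each detected member in the 3 siControl and 3 siALDOA libraries, with the mean and SD of each group as lines and the replicate number as the point shape. The groups do not overlap for SDC3, GPC1 and GPC2, and they overlap for SDC1, SDC4, GPC4 and GPC3.

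Of the 7 detected members, 2 passed an adjusted p < 0.05 in edgeR's quasi-likelihood test over all genes, SDC3 and GPC1, both lower with siALDOA, against 9.66% of all tested genes in either direction, 5.29% lower and 4.36% higher. With libraries scaled by their totals only, 896 genes were higher and 279 lower in place of 668 and 810. The CPM of the groups did not overlap for 3 of the 7 detected members, all with siALDOA below, against 27.7% of all tested genes in either direction and 14.6% with siALDOA below. Nothing is read from these shares, since the family was picked with this comparison known. The median log2 fold change of the 7 detected members was -0.078, and that of all tested genes was 0.0016. Summed per kilobase, the glypicans were at 8.63, 9.32 and 9.03 with siALDOA and at 10.9, 10.6 and 10.6 CPM per kilobase with siControl, without overlap. Most of this difference came from GPC1, while GPC4 overlapped between the groups and GPC3 had the higher mean with siALDOA. The summed syndecans were at 125, 133 and 130 with siALDOA and at 124, 130 and 133 CPM per kilobase with siControl, and these overlapped because SDC1 and SDC4 make up nearly all of the sum. SDC3 itself was 0.539% ± 0.0751 of the summed level of the 9 genes in siControl and 0.224% ± 0.0319 in siALDOA (SD, n = 3).

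**Figure D3:**
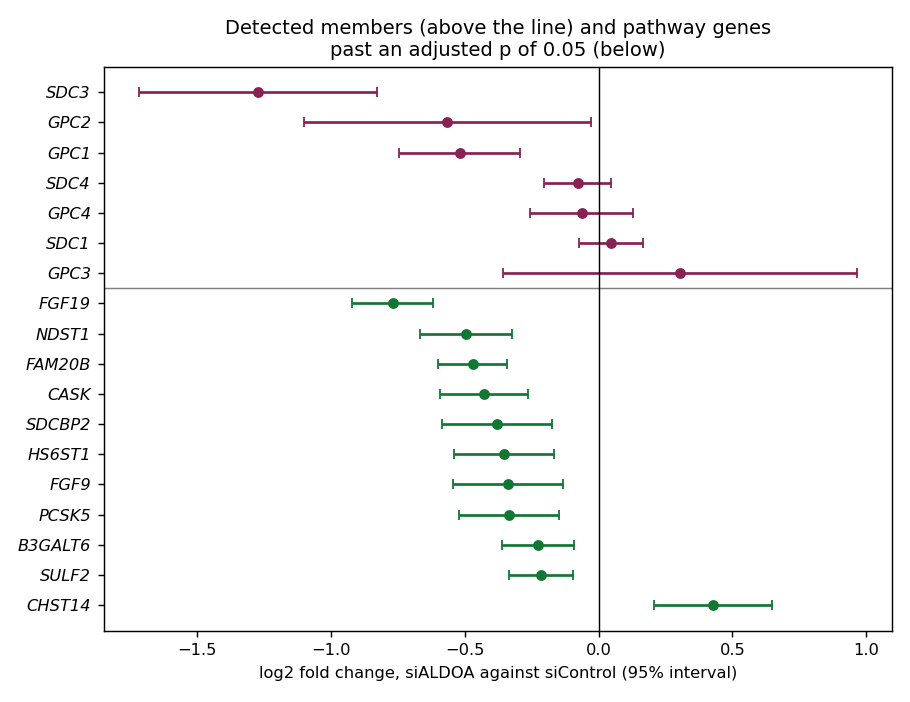
Log2 fold changes of siALDOA against siControl with 95% intervals for the 7 detected members (above the line) and for the 11 pathway genes past an adjusted p < 0.05 (below). The intervals of GPC2 and GPC3 are wide and those of SDC1, SDC4 and GPC4 narrow, and the members are shown as a description, since SDC3 was picked for its value here.

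The regions before the starts of the members were read as a description of the members. Windows at RefSeq start sites (GRCh38.p14) were read for 7 of the 9 members, all but SDC2 and GPC3. The 250 bases before each start were searched on both strands. The windows of SDC3 and GPC1, whose groups were farthest apart relative to their spread, are shown with that of GPC2, which did not pass the threshold, and that of SDC4, whose groups overlapped. The capitals mark the GC box GGGCGG or its reverse complement CCGCCC. The windows lie at chr1:30908759-30909008 on the minus strand for SDC3, chr2:240435413-240435662 on the plus strand for GPC1, chr7:100177382-100177631 on the minus strand for GPC2 and chr20:45348425-45348674 on the minus strand for SDC4.
SDC3: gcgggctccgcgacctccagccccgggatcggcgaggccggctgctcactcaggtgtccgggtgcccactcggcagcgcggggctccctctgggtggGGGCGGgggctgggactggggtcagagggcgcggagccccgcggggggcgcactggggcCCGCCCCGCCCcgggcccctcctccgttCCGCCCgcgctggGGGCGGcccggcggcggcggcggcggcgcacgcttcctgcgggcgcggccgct
GPC1: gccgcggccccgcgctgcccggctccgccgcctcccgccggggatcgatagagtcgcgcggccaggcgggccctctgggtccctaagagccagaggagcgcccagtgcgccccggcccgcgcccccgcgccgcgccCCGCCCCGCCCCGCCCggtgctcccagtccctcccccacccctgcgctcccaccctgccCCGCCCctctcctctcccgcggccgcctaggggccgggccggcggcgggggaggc
GPC2: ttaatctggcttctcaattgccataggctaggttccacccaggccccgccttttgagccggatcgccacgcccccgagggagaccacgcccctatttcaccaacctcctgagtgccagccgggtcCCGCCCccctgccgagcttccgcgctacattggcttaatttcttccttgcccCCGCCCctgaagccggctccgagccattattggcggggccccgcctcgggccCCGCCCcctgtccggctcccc
SDC4: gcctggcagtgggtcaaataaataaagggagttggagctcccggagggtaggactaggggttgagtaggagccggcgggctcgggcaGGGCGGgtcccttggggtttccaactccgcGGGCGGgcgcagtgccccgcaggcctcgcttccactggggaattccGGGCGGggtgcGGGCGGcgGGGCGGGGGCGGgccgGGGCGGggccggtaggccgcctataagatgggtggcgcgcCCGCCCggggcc
The windows of SDC3 and GPC1 were made of G and C to 83.6% and 84.0%. This was at or above 99.3% and 99.4% of the 35116 promoter windows, whose median was 58.0%. These 35116 include windows of genes without counts here, such as GPC6, and tested genes alone were not compared. The windows of GPC4, SDC4 and GPC2 reached 76.0%, 73.6% and 66.8%, the pair of windows of SDC1 75.2% and 66.4%, and that of GPC6 37.6%. The GC box occurred 5 times before SDC3, 4 times before GPC1, 3 times before GPC2, 8 times before SDC4, 2 times before GPC4 and 1 time in each of the 2 windows of SDC1, and in 42.6% of all windows at least 1 time. The TATA box TATAAA, present in 10.7% of all windows, was found only before GPC6, which had 0 counts. The letters GGAATG, which TEAD factors bind, occurred in 11.9% of all windows and in none of those of the members, and CACGTG in 6.34% and none. CCAAT was found 2 times before GPC2 and in 32.0% of all windows. A match describes letters in the window, and what binds there was not measured.

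Small interfering RNAs can also act on transcripts that pair with a short part of the guide strand in their 3′ UTR. The sequence of the ALDOA siRNA is not given in the sources used here, so its matches could not be looked up. An ALDOA shRNA sequence is stated for the lentiviral vectors, but not as that of the siRNA of these libraries, and it was not used here. A word of 7 bases, GAGGAGA, had been noticed in 3′ UTRs of genes that were lower with siALDOA in these same libraries, so it is no independent marker. Of the 9 members, SDC3 alone carries it in the 3′ UTR of its canonical GENCODE transcript, 1 time in 3745 bases, and GPC1 and GPC2 do not. Of 12820 tested genes with a 3′ UTR, whose median length was 1278.5 bases, 16.2% carry the word. The site in SDC3 is at chr1:30870860-30870866 on the minus strand of hg38 and is shown with 10 bases on each side and the word in capitals.
SDC3 3′ UTR site: agggaggataGAGGAGAaaagggcttg
Its part in the level of SDC3 was not tested.

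The genes that build, edit and use heparan sulfate were then compared in the same fit. Of 124 genes in 11 lists, 94 passed the filter on low counts. Adjusted over all tested genes, 10 of them were lower and 1 was higher with siALDOA at an adjusted p < 0.05, or 11.7% against the background of 9.66% given above. By direction, 10.6% were lower and 1.06% higher, against 5.29% and 4.36% of all tested genes. The median log2 fold change of the 94 genes was -0.041, beside 0.0016 for all tested genes. Under scaling by library totals only, 4 were lower and 2 higher, with a median of 0.033, beside 0.075 for all tested genes. Without siControl replicate 3, 5 were lower and 0 higher.

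Of the 7 tested enzymes that start the chain, 2 were lower, beside the same background. FAM20B, the kinase that phosphorylates the xylose of the linker, was at 70.3, 67.8 and 71.5 CPM with siALDOA and at 93.9, 94.3 and 102 CPM with siControl. This difference was far larger than the spread of either group, at -0.47 on the log2 scale (standard error 0.062, adjusted p = 2.87e-05, edgeR). B3GALT6, which adds a galactose to the linker, was at 94.8 ± 7.39 CPM with siALDOA and 111 ± 3.24 CPM with siControl (SD, n = 3). Its log2 fold change was -0.23 (adjusted p = 0.0298, edgeR). The adjusted p of B3GALT6 went to 0.0751 and 0.0508 when siALDOA replicates 1 and 2 were dropped singly, to 0.110 and 0.130 for siControl replicates 2 and 3, and to 0.316 with library totals only. The other 5 linker genes did not pass, among them the xylosyltransferases XYLT2 (log2 fold change 0.21, adjusted p = 0.176) and XYLT1 (-0.44, adjusted p = 0.509). Of the 5 polymerase genes, 4 were tested and 0 passed with edgeR, limma-voom or DESeq2 or at an unadjusted p < 0.05, with log2 fold changes from -0.11 for EXTL2 to 0.11 for EXTL3. EXT1 and EXT2, whose products form the polymerase, had log2 fold changes of 0.028 and -0.042 (adjusted p = 0.840 and 0.732, edgeR). The 10 genes that supply sugar and sulfate donors likewise had 0 calls by any of these and a median log2 fold change of 0.027.

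Of 16 genes that sulfate or epimerise the chain, 6 were tested and 6 had 0 counts in every library. All 6 tested genes had a log2 fold change below 0, as did 49.7% of all tested genes. With libraries scaled by their totals, 4 of the 6 were below 0, as were 5192 of all 15307 tested genes. The median of the 6 was -0.17, and 2 passed the threshold as lower, beside 5.29% of all tested genes. NDST1, which replaces acetyl by sulfate groups on glucosamine and so opens the sulfated patches, was at 33.7, 30.7 and 35.2 CPM with siALDOA and at 51.9, 42.3 and 46.1 CPM with siControl. The groups did not overlap, and NDST1 was lower by -0.49 on the log2 scale (standard error 0.083, adjusted p = 4.56e-04, edgeR). HS6ST1, a 6-O-sulfotransferase, was at 22.4, 27.4 and 23.1 CPM with siALDOA and at 30.7, 29.5 and 32.9 CPM with siControl, a log2 fold change of -0.35 (adjusted p = 0.0148, edgeR). HS6ST1 was the only 6-O-sulfotransferase gene above the filter, since HS6ST2 had 0 counts and HS6ST3 at most 6. It did not pass under scaling by library totals only (adjusted p = 0.105), without siALDOA replicate 3 (0.0643) or without siControl replicate 3 (0.0947). HS3ST1 missed the threshold at -0.25 (adjusted p = 0.0530, edgeR), and HS2ST1 and GLCE were at -0.012 and -0.0085. DESeq2 called 3 genes of this list lower. SULF2, which removes 6-O-sulfates outside the cell, was at 123 ± 3.69 CPM with siALDOA and 142 ± 4.23 CPM with siControl (SD, n = 3). This was -0.22 on the log2 scale (adjusted p = 0.0187, edgeR). SULF2 did not pass under scaling by library totals only (adjusted p = 0.320), without siALDOA replicate 2 (0.0615) or without any 1 of the siControl libraries (0.0533 to 0.0746). SULF1 had at most 3 counts and heparanase (HPSE) was near 1 CPM. The 8 lysosomal genes that break the chain down had 0 calls with edgeR, limma-voom or DESeq2, and 2 had an unadjusted p < 0.05 in edgeR.

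**Figure D4:**
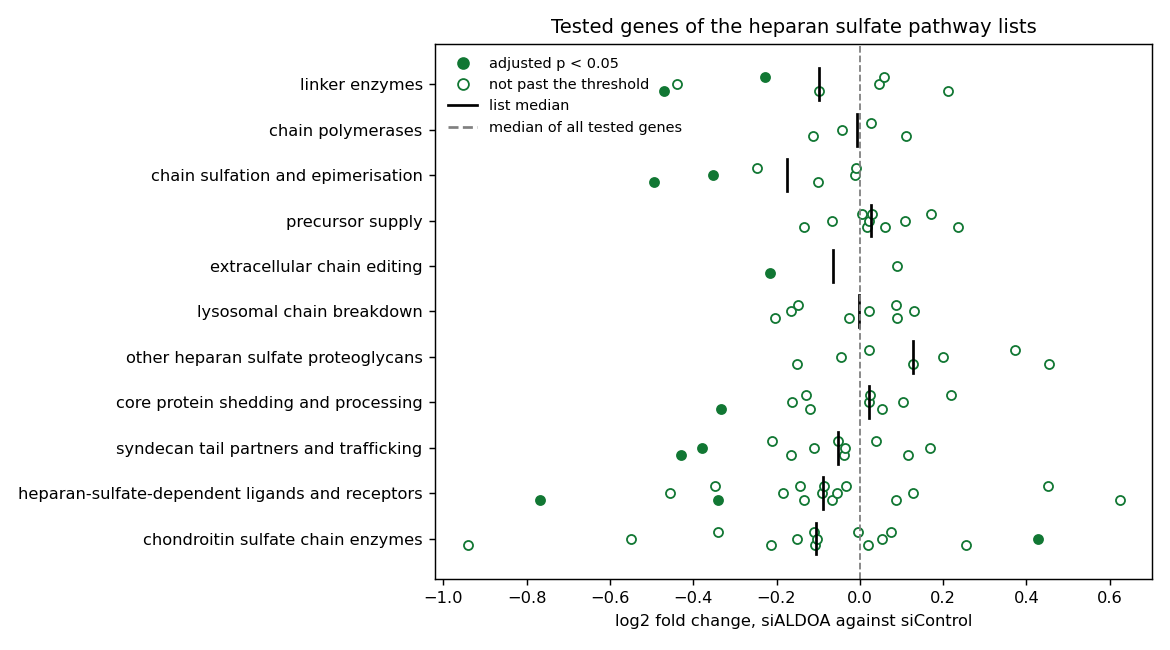
Log2 fold changes of the 94 tested pathway genes by list, with filled points for an adjusted p < 0.05, a black line at each list's median and a dashed line at the median of all tested genes. The filled points lie to the left of 0 except for CHST14 among the chondroitin sulfate enzymes.

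Among proteins that act on the cores, 2 of 11 tested partners of the syndecan tail were lower, beside 5.29% of all tested genes, and 1 of these, SDCBP2, did not pass in 3 of 14 alternative fits. CASK, a scaffold that binds the tail through its PDZ domain, was at 27.4, 25.8 and 28.8 CPM with siALDOA and at 38.5, 35.8 and 35.9 CPM with siControl. The groups were well apart, at -0.43 on the log2 scale (standard error 0.078, adjusted p = 0.00103, edgeR). SDCBP2, the second syntenin gene, was at 17.2, 17.2 and 17.3 CPM with siALDOA and at 21.9, 20.1 and 25.3 CPM with siControl, a log2 fold change of -0.38 (adjusted p = 0.0166, edgeR). The adjusted p of SDCBP2 was 0.147 without siControl replicate 3, 0.0536 without siALDOA replicate 2 and 0.0946 with library totals only. SDCBP, which encodes syntenin itself, was more than an order of magnitude above SDCBP2 in CPM and had a log2 fold change of -0.053 (adjusted p = 0.706, edgeR). ARF6, a GTPase of syndecan recycling, was at 179 ± 7.06 with siALDOA against 159 ± 3.72 CPM with siControl (SD, n = 3), without overlap. It missed the threshold (log2 fold change 0.17, adjusted p = 0.0649, edgeR). DESeq2 called 1 tail partner higher and 2 lower. CTTN, cortactin of the actin cortex, was at 0.12 (adjusted p = 0.190), also with siALDOA above in every library, and SYNJ2BP at -0.21 (adjusted p = 0.0685) with siALDOA below. Of 9 tested genes for shedding and processing of the cores, 1 was called (11.1%), close to the 9.66% of all tested genes. This was PCSK5, a proprotein convertase, which was lower by -0.33 on the log2 scale (adjusted p = 0.0205, edgeR). PCSK5 did not pass without siALDOA replicate 2 (0.0615), siControl replicate 1 (0.0826) or siControl replicate 2 (0.0640), nor with library totals only (0.131). FURIN, the convertase known to cleave glypicans, was at -0.16 (adjusted p = 0.0890), and the sheddase ADAM17 was at 0.10 (adjusted p = 0.354).

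Of 7 tested proteoglycans of the matrix and part-time carriers, 0 passed an adjusted p < 0.05 in edgeR, 1 was higher with limma-voom and 1 with DESeq2, and 3 had an unadjusted p < 0.05. AGRN, agrin of the basement membrane, was at 2595 CPM with siALDOA and 2258 CPM with siControl, with a log2 fold change of 0.20 (adjusted p = 0.134, edgeR). HSPG2, which encodes perlecan, was at 0.023 and CD44 at 0.13 (adjusted p = 0.878 and 0.155). TGFBR3, a receptor that can carry heparan sulfate, was at 0.37 and just missed the threshold (adjusted p = 0.0517, edgeR), although it passed the unadjusted P < 0.01. GPC5, the remaining glypican gene, had 0 counts in all libraries.

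Of 16 tested genes listed as ligands and receptors linked to heparan sulfate, 2 (12.5%) were lower, beside 5.29% of all tested genes. Of these 2, FGF9 did not pass in 6 of 14 alternative fits. How far each listed gene depends on heparan sulfate was not measured. FGF19, an intestinal hormone of the FGF family, was at 100, 124 and 126 CPM with siALDOA and at 204, 198 and 195 CPM with siControl. The groups did not come near each other, and FGF19 was lower by -0.77 on the log2 scale (standard error 0.072, adjusted p = 2.57e-07, edgeR). FGF9 was lower by -0.34 (adjusted p = 0.0336, edgeR), but its adjusted p was 0.0555 to 0.125 without any 1 library other than siALDOA replicate 1, and 0.137 with library totals only. The receptors FGFR2, FGFR3 and FGFR4 had log2 fold changes of -0.055, -0.18 and 0.088 and did not pass. IHH and HBEGF, at -0.35 and -0.46, had adjusted p of 0.0590 and 0.0658 (edgeR).

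Chondroitin sulfate, a different chain that SDC1 can also carry, is made on the same linker. Of 14 tested enzymes, 1 was called (7.14%), below the 9.66% of all tested genes. CHST14, the dermatan 4-O-sulfotransferase, was higher with siALDOA, at 16.3, 19.0 and 17.2 CPM against 14.2, 12.9 and 12.0 CPM. CHST14 was higher by 0.43 on the log2 scale (standard error 0.11, adjusted p = 0.0120, edgeR). Its adjusted p rose to 0.0823 without siControl replicate 3, 0.0715 without siALDOA replicate 2 and 0.0524 without siControl replicate 2. The median of this list was -0.10, and 9 of the 14 genes (64.3%) had a log2 fold change below 0, beside 49.7% of all tested genes. CHPF, a chondroitin polymerising factor, missed the threshold at -0.21 (adjusted p = 0.0533, edgeR). DESeq2 called 1 gene of this list higher and 1 lower. CHST13, the lowest at -0.94 (adjusted p = 0.204), rested on 8 to 25 counts per library.

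Among genes averaging 1 CPM or more over the libraries, the 5 whose log2 CPM followed that of SDC3 most closely over the 6 libraries were MMP15, ASS1, CHMP7, MCFD2 and PRMT3. Their Pearson correlations with SDC3 ran from 0.992 for PRMT3 to 0.995 for MMP15 among 13723 genes compared. All 5 had a lower mean with siALDOA, at log2 fold changes of -0.21 for MMP15, -0.44 for ASS1, -0.73 for CHMP7, -0.52 for MCFD2 and -0.18 for PRMT3, which did not pass the test (adjusted p = 0.196, edgeR). The points share libraries and scaling, and the difference between the groups enters each correlation.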

How the data were processed

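Reads of 3 siALDOA and 3 siControl libraries of HT29 cells were aligned by the authors to hg38 with tophat2 and counted per gene with gfold, per the study's methods. The deposited counts are whole numbers per gene symbol without normalization. The gene annotation and strand setting are not given in the sources used here. Genes were filtered with filterByExpr, scaled by TMM and tested with edgeR 4.0.16 (glmQLFit, Benjamini-Hochberg adjusted p < 0.05) in R 4.3.3 without a covariate, a design checked on simulated data. Each standard error was the absolute log2 fold change over the root of F. Intervals and floors of 3 counts cover these libraries and counting error only. Alternatives were limma-voom (limma 3.58.1), DESeq2 1.42.0, other scalings and filters, a replicate block, an unadjusted P < 0.01 and each library left out. Lengths, coordinates and UTRs came from GENCODE release 44 on hg38, and promoter windows from RefSeq (GRCh38.p14). Named genes were ALDOA, all members, any pathway gene past the threshold, the smallest p of each list (up to 5) and the 5 genes most like SDC3. GLCE, SDCBP, CTTN, HSPG2, FGFR2, FGFR4, the epithelial markers and genes under the filter were named after their values were seen, and some genes the rule takes are left out. The members and lists were chosen with earlier results of these data known. The labels call the replicates biological.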

Additional observations from a re-analysis of the deposited data

How the results depend on the processing

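Of the members, 2 were lower and 0 higher in every alternative, which are refits of the libraries in which SDC3 was picked and say nothing independent about it. With library totals only, 279 genes were lower over all tested genes, and without 1 library in turn 359 to 644 were higher and 471 to 790 lower, with the fewest calls without siControl replicate 2 (359 and 490) or 3 (363 and 471). Of the pathway genes, 2 were higher with limma-voom, library totals only or upper quartile normalization, and 3 with DESeq2, no filter on low counts, the replicate block or an unadjusted P < 0.01. Without 1 library in turn 0 to 2 were higher and 5 to 11 lower (6 and 5 without siControl replicates 2 and 3), and with library totals only 4 were lower. FAM20B, NDST1, CASK and FGF19 passed in all 14 alternative fits. B3GALT6, HS6ST1, SULF2, PCSK5, SDCBP2, FGF9 and CHST14 each failed in 3 to 6 of them. Whether the replicate numbers pair the libraries is not settled by these values. The deviations of libraries with the same number correlated by only 0.026 to 0.035. Those with different numbers correlated by -0.046 to 0.022, and each library correlated best with its own number. The replicate block gave 987 higher and 1175 lower genes in all, and 18 lower pathway genes. The cause was not tested. With 45 to 168 counts per library for SDC3 and 28 to 90 for GPC2 and GPC3, counting alone gives these members a coefficient of variation of at least 8.13%.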
